A study of Arabidopsis thaliana with 39 samples.

Results

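Nitrate transport and reduction in Arabidopsis thaliana was followed through 10 genes chosen by symbol and locus identifier: the transporter genes NRT1.1 (AT1G12110), NRT1.5 (AT1G32450), NRT1.8 (AT4G21680), NRT2.1 (AT1G08090), NRT2.2 (AT1G08100), NRT2.5 (AT1G12940) and NRT2.6 (AT3G45060), the nitrate reductase genes NIA1 (AT1G77760) and NIA2 (AT1G37130), and the nitrite reductase gene NIR1 (AT2G15620). Of these, 9 have a value in the table of 20001 genes, all 9 passed the filter on low values, and NRT2.2 was not analysed here. Plants take nitrate up at the root surface through low-affinity carriers of the NRT1 family and high-affinity carriers of the NRT2 family, which work with the partner protein NRT3.1. Nitrate is carried to the shoot in the xylem or reduced in the cell, first to nitrite by nitrate reductase in the cytosol and then to ammonium by nitrite reductase in plastids. Several of these genes are known to be turned up by nitrate and turned down by reduced nitrogen such as ammonium and glutamine.

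The data are RNA sequencing values from whole wild-type Col-0 seedlings, 14 days old, grown in liquid medium with 1% sucrose under continuous light after 2 days of cold. Seedlings were given the amino acid L-glutamate (L-Glu, 20 mM), urea (20 mM) or the defence hormone salicylic acid (SA, 1 mM) and sampled 6, 12, 24 or 48 h later, and a water-treated group (mock) was sampled at 0 h. Each of the 13 groups had 3 libraries, 39 in all. Urea, a nitrogen compound given at the molar dose of L-Glu, was the reference at each time. Mock was sampled at 0 h alone, so in a comparison with mock the treatment cannot be told apart from the hours in culture. Whether the 3 libraries of a group came from separate cultures is not stated in the labels, and the p-values cover only the spread among them, which may be technical.

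Values are the authors' normalized values, here called normalized values. They sum to between 2445645 and 5886170 per library, a sum that is not sequencing depth, which is unknown. By treatment the sums ran from 2706596 to 2964406 in mock, 2445645 to 2828598 in urea, 2717614 to 5886170 in L-Glu and 2782688 to 3006985 in SA. A log2 difference is a difference of mean log2(value + 1) between groups with its standard error (SE), and a gene was called where its adjusted p over all 20001 genes was below 0.05 in limma, a linear model fitted across all genes. Of all libraries, 2 from L-Glu lay farthest from their group means, replicate 2 at 6 h and replicate 2 at 48 h, with root mean square deviations over all genes of 0.476 and 0.524 on the log2 scale, against 0.309 to 0.365 in the urea libraries.

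The genes lie on 4 chromosomes of the RefSeq annotation of TAIR10.1. NRT2.1 (chr1:2524023-2526322) and NRT2.2 (chr1:2527170-2529120) are neighbours 848 bases apart, and their coding sequences are identical at 89.4% of aligned bases, with one run of 170 identical bases. Reads could therefore be split or lost between these genes in the authors' counting, and the NRT2.1 values are uncertain to that extent. NIA1 and NIA2 share 74.1% of their aligned coding bases, and NRT1.5 and NRT1.8 share 70.3%.

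The 250 bases before the gene start are shown, from RefSeq TAIR10.1 and in the direction of the gene, for the transporters with the largest rise in L-Glu over urea (NRT1.8 on the minus strand at chr4:11519806-11520055 and NRT2.1 on the plus strand at chr1:2523773-2524022), for NRT2.2 as the near copy of NRT2.1 (minus strand, chr1:2529121-2529370) and for NIR1, lower in L-Glu at every time (plus strand, chr2:6810145-6810394). Capitals mark GAATC, a short word bound by GARP-type nitrate repressors, and TGACG, the core word of TGA factors, each on either strand.
NRT1.8: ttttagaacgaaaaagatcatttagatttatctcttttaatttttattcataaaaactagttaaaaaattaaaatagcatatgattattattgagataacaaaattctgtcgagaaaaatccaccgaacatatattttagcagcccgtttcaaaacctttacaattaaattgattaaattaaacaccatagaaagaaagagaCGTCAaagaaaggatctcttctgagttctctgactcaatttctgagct
NRT2.1: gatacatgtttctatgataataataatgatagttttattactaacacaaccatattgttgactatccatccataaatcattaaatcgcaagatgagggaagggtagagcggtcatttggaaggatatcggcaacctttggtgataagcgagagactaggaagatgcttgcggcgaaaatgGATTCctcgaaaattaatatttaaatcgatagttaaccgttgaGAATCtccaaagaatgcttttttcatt
NRT2.2: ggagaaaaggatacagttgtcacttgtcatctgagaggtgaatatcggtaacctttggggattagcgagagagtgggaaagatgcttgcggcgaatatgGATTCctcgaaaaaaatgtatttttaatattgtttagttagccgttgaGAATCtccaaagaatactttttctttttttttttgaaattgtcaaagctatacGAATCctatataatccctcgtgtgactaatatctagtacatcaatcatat
NIR1: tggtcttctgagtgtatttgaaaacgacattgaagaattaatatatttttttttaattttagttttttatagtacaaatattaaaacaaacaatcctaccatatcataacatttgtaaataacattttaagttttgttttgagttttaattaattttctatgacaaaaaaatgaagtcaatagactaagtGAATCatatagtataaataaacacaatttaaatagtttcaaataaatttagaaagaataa
TGACG was found in the NRT1.8 window only among the 10 genes, on the minus strand from base 48 to base 44 before the start, and 18.6% of 27443 Arabidopsis windows of this length hold it. GAATC was found in 5 of the 10 windows, those of NRT2.1, NRT2.2, NRT2.5, NIA1 and NIR1, against 38.9% of all windows. The longer GARP word GAATATTC was in none of the 10 windows and in 0.86% of all windows. A match is a string of letters and does not show that a factor binds there.

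**Figure D1:**
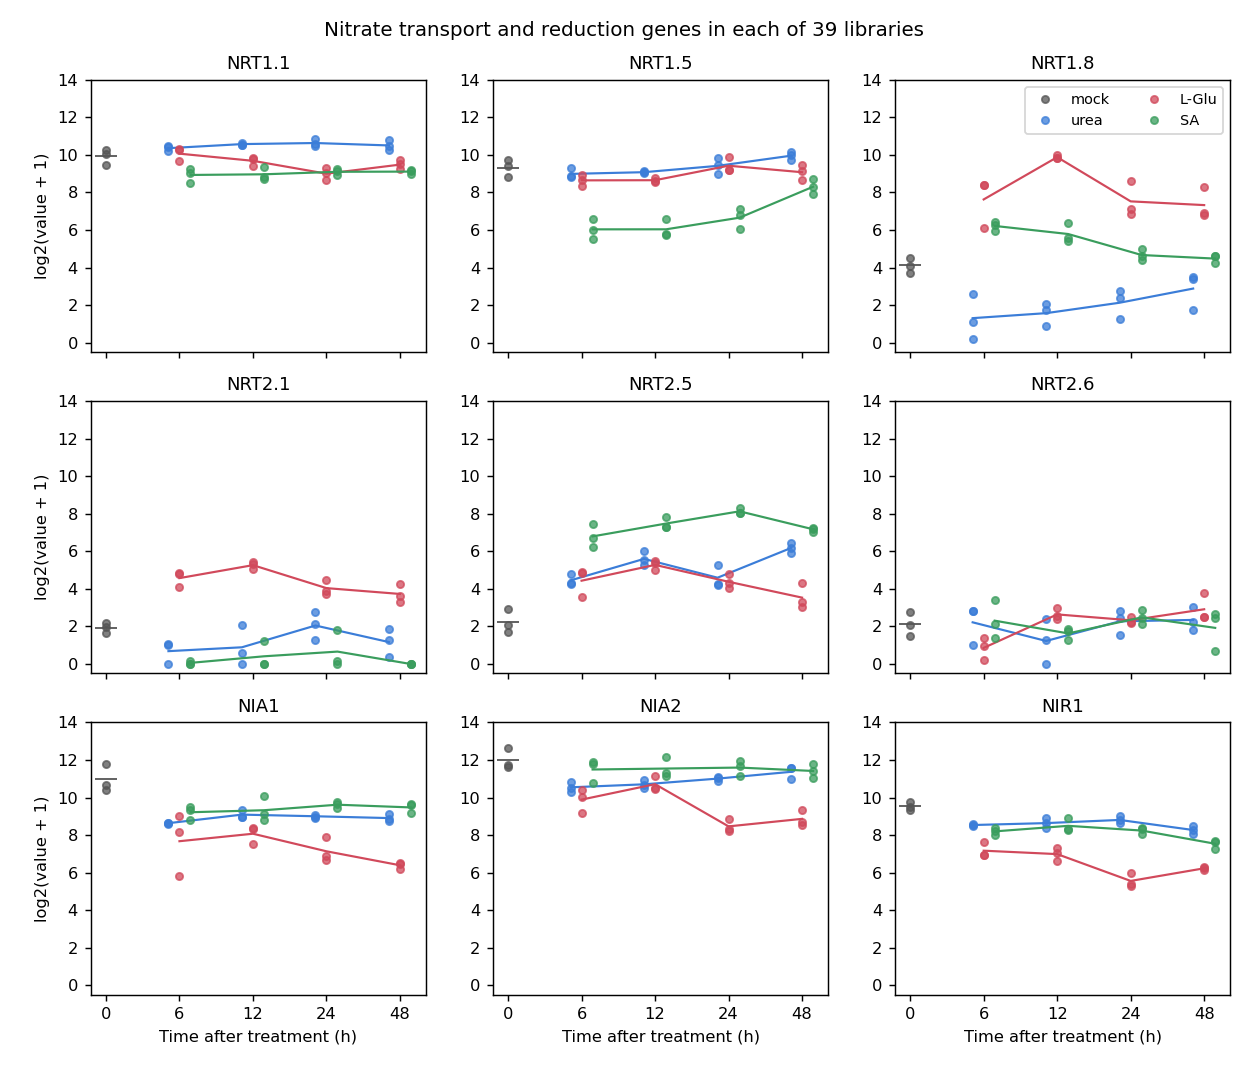
Each panel plots log2(value + 1) of one gene against time (h, not to scale), with 1 point per library, lines through the means of 3 libraries and a bar at the mock mean. NRT1.8 and NRT2.1 lie above urea in every L-Glu library, NIR1 lies below urea in every L-Glu library, and NRT2.5 lies above urea in every SA library.

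L-Glu and urea were compared to find genes that differ between these nitrogen compounds at one dose. The transporter genes NRT1.8 and NRT2.1 were higher in L-Glu at all 4 times, NIR1 was lower at all 4 times, and NRT1.1 from 12 h and NIA1 and NIA2 from 24 h were lower. At 6 h 2 of the 9 genes were called higher and 1 lower, where 8.36% of all genes were higher and 3.15% lower. At 12 h 2 were higher and 2 lower, with 25.8% and 21.9% of all genes. At 24 h 2 were higher and 4 lower, with 29.3% and 31.3% of all genes. At 48 h 2 were higher and 6 lower, with 25.2% and 27.6% of all genes, and over the average of the 4 times 2 were higher and 6 lower, with 33.0% and 36.4% of all genes. From 12 h on a large share of all genes was called, and with every library scaled to the same total the median of all genes was -0.47 at 12 h, -1.10 at 24 h and -0.54 at 48 h. Under that scaling 28.4%, 17.9% and 25.6% of called genes were higher, against 54.2%, 48% and 47.8% as deposited. After quantile normalization the share was 56.5% at 6 h and 37.6% at 12 h, against 72.6% and 54.2%. In bulk seedlings, fewer cells of a type and less RNA per cell cannot be told apart.

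SA against urea asked how the same genes differ between a defence hormone and urea. Urea is itself a nitrogen compound and was given at a higher molar dose than SA. Each difference therefore compares treated seedlings with treated seedlings, and the part of urea in it was not tested. NRT1.1 and NRT1.5 were lower and NRT1.8 and NRT2.5 higher at all 4 times. At 6 h 3 of the 9 genes were called higher and 2 lower, where 15.9% of all genes were higher and 13.5% lower. At 12 h 3 were higher and 2 lower, with 16.2% and 15.6% of all genes. At 24 h 2 were higher and 4 lower, with 15.1% and 15.5% of all genes, and at 48 h 2 were higher and 3 lower, with 13.5% and 14.9% of all genes. Comparisons with L-Glu and with SA share the urea libraries, so their values are given side by side. With every library at the same total the share of called genes that were higher in SA was 37.4% at 24 h and 29.3% at 48 h, against 49.3% and 47.5% as deposited.

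L-Glu and SA were also compared directly. At 6 h 4 of the 9 genes were called higher in L-Glu and 4 lower, where 17.4% of all genes were higher and 15.9% lower. At 12 h the counts were 4 and 4, with 29.1% and 23.3% of all genes. At 24 h they were 3 and 4, with 31.7% and 30.8%, and at 48 h 3 and 4, with 29.4% and 29.6%. The share of called genes that were higher was 55.5% at 12 h, 50.7% at 24 h and 49.8% at 48 h as deposited and 35.2%, 22.5% and 36.1% at the same total, and 40.3% at 12 h after quantile normalization. NRT2.1, NRT1.5 and NRT1.8 were higher in L-Glu and NRT2.5, NIA1, NIA2 and NIR1 lower at every time, with overlapping groups for NRT1.8 at 6 h.

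**Figure D2:**
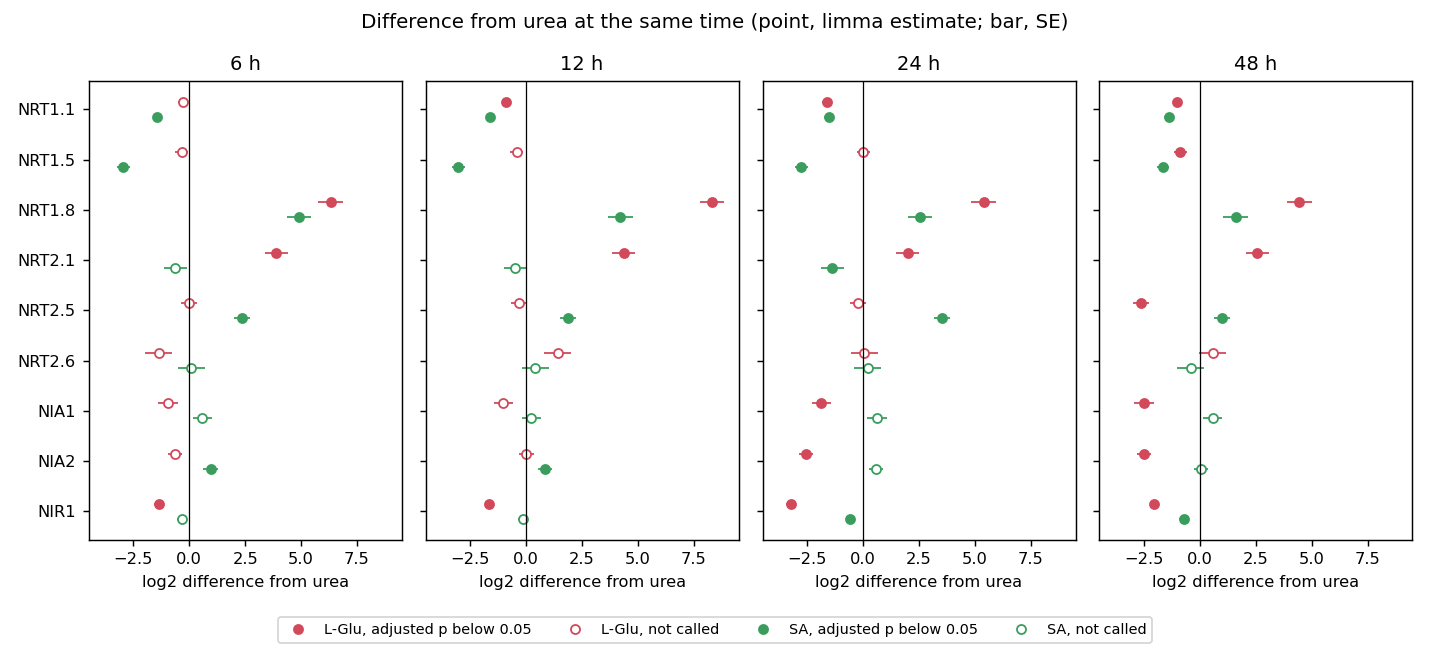
Log2 difference of L-Glu (red) and SA (green) from urea at 6, 12, 24 and 48 h for the 9 genes, with the limma estimate as a point, the SE as a bar and filled points where adjusted p was below 0.05. NRT1.8 lies to the right of 0 in both treatments, while NRT2.1 lies to the right in L-Glu only and NRT2.5 to the right in SA only; NRT2.1 in SA at 48 h is not drawn, because it is listed at 0 in all 3 libraries.

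NRT1.8, which withdraws nitrate from the xylem sap, was near the bottom of the scale in urea and high in L-Glu. Its urea values were 0.156, 1.19 and 4.99 at 6 h, 0.853, 2.38 and 3.203 at 12 h, 5.62, 4.27 and 1.39 at 24 h, and 9.61, 10.2 and 2.38 at 48 h. Its L-Glu values were 336, 68.3 and 329.9 at 6 h, 919.6, 1007 and 896 at 12 h, 139, 389 and 114 at 24 h, and 109.9, 314 and 117 at 48 h. Its SA values were 84.4, 60.6 and 77.1 at 6 h, 80.4, 46.5 and 42.4 at 12 h, 19.9, 23.9 and 30.4 at 24 h, and 23.1, 23.3 and 17.8 at 48 h. Every L-Glu library and every SA library lay above every urea library of its time, and the 3 L-Glu libraries at 12 h were the highest of all 39. The log2 difference of L-Glu from urea was 6.32 at 6 h, 8.30 at 12 h, 5.40 at 24 h and 4.44 at 48 h (SE 0.55 at each time, highest adjusted p = 1.93e-08). The difference of SA from urea was 4.91 at 6 h, 4.21 at 12 h, 2.54 at 24 h and 1.595 at 48 h, with adjusted p = 0.0279 at 48 h. L-Glu exceeded SA by 4.09 ± 0.55 at 12 h (adjusted p = 1.41e-07), and the direct difference of 1.41 at 6 h (adjusted p = 0.0472) came from groups that overlap. L-Glu was also called above SA at 24 and 48 h. Mean log2(value + 1) was 7.52 in L-Glu and 4.67 in SA at 24 h, and 7.33 and 4.48 at 48 h. At 6 h replicate 2 of L-Glu held 68.3 where the other two held 336 and 330, inside the SA range of 60.6 to 84.4. The direct call at 6 h was lost without any 1 of 5 libraries, L-Glu replicate 1 or 3 or any SA replicate, with values from 1.03 to 1.51, and the SA call at 48 h was lost without urea replicate 3 (1.03) or SA replicate 1 (1.54) or 2 (1.53).

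NRT1.5, which loads nitrate into the root xylem, was low in SA and, in L-Glu, passed the test against urea at 48 h alone among the 4 times. In urea NRT1.5 read 449, 622 and 465 at 6 h, 536, 564 and 519 at 12 h, 707, 898 and 498 at 24 h, and 1020.0, 1146 and 834 at 48 h. In SA NRT1.5 read 62.8, 45.2 and 94.5 at 6 h, 52.2, 95.3 and 54.2 at 12 h, 139.6, 109.5 and 64.9 at 24 h, and 309, 421 and 240.0 at 48 h. In L-Glu NRT1.5 read 325, 480.3 and 405 at 6 h, 394, 379 and 431 at 12 h, 586, 588 and 933 at 24 h, and 568, 397 and 693 at 48 h. No SA library reached its urea group at any time, and at 48 h the SA libraries lay above all earlier SA libraries. The log2 difference of SA from urea was -2.95 at 6 h, -3.04 at 12 h, -2.76 at 24 h and -1.65 at 48 h (SE 0.28, highest adjusted p = 2.61e-05). In L-Glu the difference passed the test at 48 h, at -0.88 ± 0.28 (adjusted p = 0.00932), and not at 6, 12 or 24 h, where it was -0.34, -0.43 and 0.01. At 12 h all L-Glu libraries lay below urea, and the difference was called under quantile normalization (-0.93), with library totals made equal (-0.88) and with only the groups compared in the fit (adjusted p = 0.0092). At 24 h its sign turned with the scaling, to -1.07 with library totals made equal and to -0.87 under quantile normalization. The 48 h call was lost without replicate 2 of L-Glu (-0.66, adjusted p = 0.0800). Directly, L-Glu exceeded SA by 2.61 at 6 h, 2.61 at 12 h, 2.77 at 24 h and 0.77 at 48 h, and the 48 h call (adjusted p = 0.0195) was lost without L-Glu replicate 1 (0.73) or 3 (0.59) or SA replicate 3 (0.58).

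NRT1.1, a carrier that switches between low and high affinity and also senses nitrate, was lower than urea in both treatments. Values of NRT1.1 in urea were 1429.8, 1163 and 1351 at 6 h, 1599, 1492 and 1479 at 12 h, 1548, 1423 and 1805 at 24 h, and 1740.4, 1218 and 1435 at 48 h. Values of NRT1.1 in L-Glu were 1262, 803 and 1206 at 6 h, 888, 689 and 904 at 12 h, 523, 398 and 637 at 24 h, and 839.6, 603 and 718 at 48 h. Values of NRT1.1 in SA were 599, 364 and 530.0 at 6 h, 664, 452 and 414 at 12 h, 554, 489 and 604 at 24 h, and 561, 505 and 592 at 48 h. The SA libraries lay below the urea libraries at every time, whereas the L-Glu libraries overlapped urea at 6 h and lay below it from 12 h on. The log2 difference of L-Glu from urea was -0.29 at 6 h, -0.89 at 12 h, -1.63 at 24 h and -1.02 at 48 h (SE 0.21), which was not called at 6 h (adjusted p = 0.438) and was called from 12 h on (highest adjusted p = 0.000652). The difference of SA from urea was -1.43 at 6 h, -1.61 at 12 h, -1.53 at 24 h and -1.39 at 48 h (highest adjusted p = 3.07e-06). L-Glu was above SA by 1.13 at 6 h (adjusted p = 6.83e-05) and 0.72 at 12 h (adjusted p = 0.00434), and at 24 and 48 h the direct differences of -0.10 ± 0.21 and 0.37 ± 0.21 were not called. The 12 h difference from SA was no longer called after quantile normalization (0.23) or at the same total (0.34). At 24 h the direct difference was called after both, at -0.61 and -1.07.

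NRT2.1, the main high-affinity carrier of root nitrate uptake, was at 8.99 or more in every L-Glu library and was at or near 0 in SA. Its urea values were 0, 1.09 and 0.998 at 6 h, 0, 3.24 and 0.508 at 12 h, 5.78, 1.42 and 3.34 at 24 h, and 2.62, 0.298 and 1.42 at 48 h. Its L-Glu values were 26.5, 16.3 and 27.5 at 6 h, 41.6, 32.4 and 39.01 at 12 h, 12.5, 14.1 and 21.0 at 24 h, and 11.3, 18.1 and 8.99 at 48 h. Its SA values were 0, 0.139 and 0 at 6 h, 1.36, 0 and 0 at 12 h, 0, 0.136 and 2.49 at 24 h, and 0, 0 and 0 at 48 h. All 12 L-Glu libraries lay above all 12 urea and all 12 SA libraries, and 8 of the 11 values listed at 0 over the 9 genes were NRT2.1 in SA. No gene at all was listed at 0 in the L-Glu libraries at 12 and 24 h, so counts of 0 do not compare treatments. The log2 difference of L-Glu from urea was 3.89 at 6 h, 4.37 at 12 h, 1.99 at 24 h and 2.56 at 48 h (SE 0.51, highest adjusted p = 0.00117). At 24 h the call was lost with every library at the same total (1.04, adjusted p = 0.0791). L-Glu was above SA by 4.51 at 6 h, 4.85 at 12 h and 3.38 at 24 h (highest adjusted p = 6.73e-07), and at 48 h, where SA is listed at 0 in every library, no fold is given. Of the SA differences from urea only that at 24 h passed the test (-1.39, adjusted p = 0.0379), with groups that overlap, and leaving out urea replicate 1 (-1.03) or 3 (-1.36) or SA replicate 1 (-1.06) or 2 (-1.15) ended the call. Log2 differences of genes this close to 0 depend on the pseudocount of 1.

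NRT3.1 (AT5G50200), the partner protein that NRT2 carriers need, belongs to the list of other transporters and was followed with NRT2.1. In urea NRT3.1 read 47.0, 42.6 and 47.0 at 6 h, 56.3, 76.4 and 64.6 at 12 h, 75.1, 53.9 and 76.0 at 24 h, and 211, 119.8 and 114 at 48 h. In L-Glu NRT3.1 read 161, 131 and 126 at 6 h, 450.4, 694 and 440.2 at 12 h, 878, 1190.4 and 499 at 24 h, and 317, 639.5 and 737 at 48 h. In SA NRT3.1 read 167, 192 and 118 at 6 h, 205, 238 and 213 at 12 h, 159, 197 and 149 at 24 h, and 201, 216 and 165 at 48 h. All L-Glu libraries lay above the urea libraries of their time, and the SA libraries lay above urea through 24 h and overlapped it at 48 h. L-Glu differed from urea by 1.59 at 6 h, 2.96 at 12 h, 3.56 at 24 h and 1.89 at 48 h (SE 0.27, highest adjusted p = 5.83e-05), and SA by 1.75 at 6 h, 1.73 at 12 h, 1.29 at 24 h and 0.44 at 48 h, where the 48 h value was not called (adjusted p = 0.235). The direct difference of L-Glu from SA was -0.17 ± 0.27 at 6 h (not called, adjusted p = 0.670) and 2.26 ± 0.27 at 24 h (adjusted p = 3.81e-09). NRT3.1 and NRT2.1 thus were both higher in L-Glu, while in SA NRT3.1 was higher through 24 h and NRT2.1 was near 0.

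**Figure D3:**
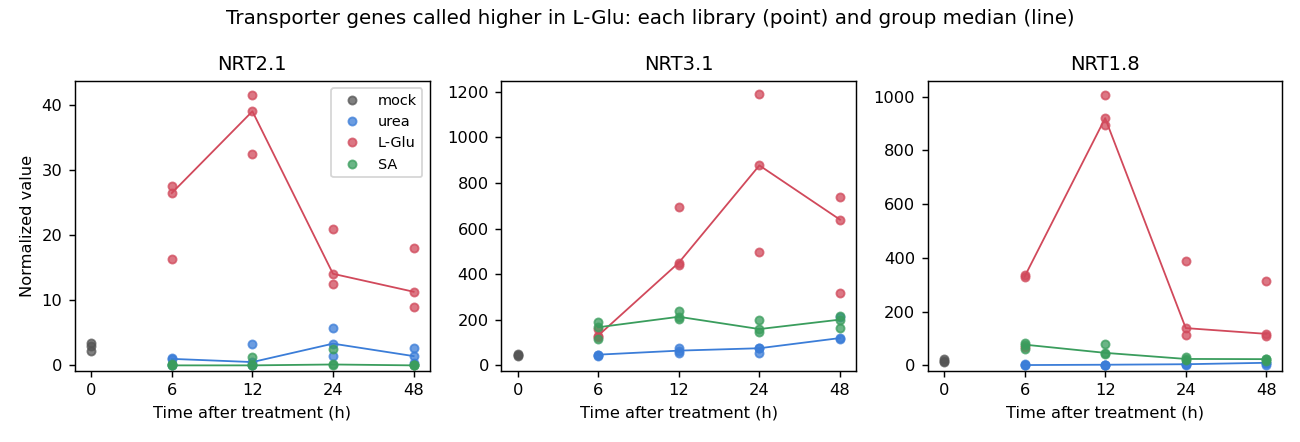
Normalized values of NRT2.1, NRT3.1 and NRT1.8 against time (h, not to scale), with 1 point per library and a line through group medians. NRT2.1 and NRT1.8 had their highest L-Glu medians at 12 h and NRT3.1 at 24 h, and in SA the NRT2.1 points lie at or near 0.

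NRT2.5, a high-affinity carrier known from nitrogen-starved plants, was high in SA. Values of NRT2.5 in urea were 27.1, 18.8 and 18.0 at 6 h, 63.3, 37.2 and 45.4 at 12 h, 18.2, 17.8 and 38.3 at 24 h, and 86.1, 58.6 and 72.4 at 48 h. Values of NRT2.5 in SA were 73.4, 173 and 105 at 6 h, 156, 229 and 157 at 12 h, 319, 259.8 and 263 at 24 h, and 132, 153 and 147 at 48 h. Values of NRT2.5 in L-Glu were 28.0, 10.9 and 28.5 at 6 h, 43.4, 39.9 and 31.2 at 12 h, 15.4, 18.7 and 26.9 at 24 h, and 8.82, 18.6 and 7.10 at 48 h. All SA libraries lay above the urea libraries of their time, and the L-Glu libraries overlapped urea until 24 h and lay below it at 48 h. SA differed from urea by 2.34 at 6 h, 1.88 at 12 h, 3.53 at 24 h and 1.00 at 48 h (SE 0.35). The 48 h call (adjusted p = 0.0324) was lost without urea replicate 2 or 3 or any SA replicate, with values from 0.85 to 1.06, and at the same total (0.83) or after quantile normalization (0.86). In L-Glu the difference from urea was -2.64 ± 0.35 at 48 h (adjusted p = 8.81e-08), and at 6, 12 and 24 h it was -0.02, -0.32 and -0.22, none of them called. With library totals made equal the 24 h value was called, at -1.23 (adjusted p = 0.00296). L-Glu was below SA at every time, by -2.36 at 6 h, -2.201 at 12 h, -3.75 at 24 h and -3.64 at 48 h (highest adjusted p = 3.25e-06). Urea itself rose from 6 to 48 h by 1.72 ± 0.35 (adjusted p = 0.000791).

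NRT2.6, another member of the high-affinity family, was low throughout and was called in none of the 18 comparisons by limma, with an unadjusted p below 0.05 in 4 of them. Its values ran from 0 to 7.23 in the 12 urea libraries with a median of 3.93, from 0.164 to 12.8 in L-Glu with a median of 4.40, and from 0.609 to 9.48 in SA with a median of 3.37. The treatments overlapped at this level. The difference of L-Glu from urea was -1.36 ± 0.60 at 6 h and 1.41 ± 0.60 at 12 h (adjusted p = 0.0507), and the latter was 1.99 without replicate 2 of urea at 12 h (called) and 0.80 without replicate 1. The 12 h value was also called with a pseudocount of 0.25 (2.14), with array quality weights (1.48) and with the replicate block (adjusted p = 0.0441), and the 6 h value without replicate 3 of urea (-1.97, adjusted p = 0.0461).

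NIR1, the single gene of the set for plastid nitrite reductase, was lower in L-Glu at every time. Its urea values were 373, 357 and 382 at 6 h, 474, 334 and 398 at 12 h, 441, 397 and 512 at 24 h, and 261, 309 and 362 at 48 h. Its L-Glu values were 120.2, 124 and 198 at 6 h, 158, 95.8 and 133 at 12 h, 38.8, 40.7 and 62.5 at 24 h, and 70.1, 75.4 and 77.6 at 48 h. Its SA values were 296, 255 and 333 at 6 h, 473, 315 and 313 at 12 h, 331, 262 and 317 at 24 h, and 199, 155 and 206 at 48 h. All 12 L-Glu libraries lay below all 12 urea libraries, and the L-Glu libraries at 24 h were the lowest of all. The log2 difference of L-Glu from urea was -1.37 at 6 h, -1.65 at 12 h, -3.25 at 24 h and -2.04 at 48 h (SE 0.20, highest adjusted p = 1.01e-05). SA was below urea by -0.57 ± 0.20 at 24 h (adjusted p = 0.0310) and -0.73 ± 0.20 at 48 h (adjusted p = 0.00568) and was not called at 6 or 12 h. The 24 h call was lost without urea replicate 1 (-0.58) or 3 (-0.47) or SA replicate 2 (-0.46) or 3 (-0.60), and the 48 h call was lost without the libraries of replicate number 2 (-0.60, adjusted p = 0.0649). L-Glu was below SA by -1.03 at 6 h, -1.51 at 12 h, -2.68 at 24 h and -1.31 at 48 h (highest adjusted p = 0.000150).

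NIA2, which provides most nitrate reductase activity in Arabidopsis, was lower in L-Glu at 24 and 48 h. In urea NIA2 read 1443, 1254 and 1841 at 6 h, 1957, 1645 and 1444 at 12 h, 1858, 2225 and 2114 at 24 h, and 3031, 3041 and 2013 at 48 h. In L-Glu NIA2 read 1058, 587 and 1373 at 6 h, 2277, 1470.0 and 1411 at 12 h, 298, 468 and 315 at 24 h, and 418, 651 and 372 at 48 h. In SA NIA2 read 3829, 1768 and 3541 at 6 h, 4616, 2269 and 2547 at 12 h, 3316, 2258 and 3965 at 24 h, and 2716, 2139 and 3511 at 48 h. At 6 and 12 h the L-Glu and urea libraries overlapped, and at 24 and 48 h every L-Glu library lay below urea and SA. L-Glu differed from urea by -0.65 at 6 h, 0.01 at 12 h, -2.54 at 24 h and -2.504 at 48 h (SE 0.32), and the adjusted p was 1.86e-08 at 24 h and 3.26e-08 at 48 h. The 12 h value had the sign turned after quantile normalization, to -0.79. SA was above urea by 0.95 at 6 h (adjusted p = 0.0232, overlapping groups) and 0.84 at 12 h (adjusted p = 0.0424). Its differences of 0.59 at 24 h (adjusted p = 0.168) and 0.05 at 48 h (adjusted p = 0.936) were not called. At 24 h all SA libraries lay above urea. That difference was called with only the groups compared in the fit (adjusted p = 0.0230) and without the libraries of replicate number 2 (0.87, adjusted p = 0.0313). The 6 h call was lost without urea replicate 1 (0.92) or 2 (0.82) or SA replicate 1 (0.74) or 3 (0.80), and the 12 h call without urea replicate 2 (0.83) or 3 (0.74) or SA replicate 1 (0.53). L-Glu was below SA by -1.603 at 6 h, -0.83 at 12 h, -3.13 at 24 h and -2.55 at 48 h, of which the 12 h call (adjusted p = 0.0284) was lost without L-Glu replicate 2 (-0.74) or 3 (-0.71) or SA replicate 1 (-0.52).

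NIA1, the other nitrate reductase gene, was also lower in L-Glu at the late times. Values of NIA1 in urea were 402, 392 and 398 at 6 h, 653, 498 and 497 at 12 h, 486, 507 and 547 at 24 h, and 549.6, 431 and 465 at 48 h. Values of NIA1 in L-Glu were 286, 56.5 and 518 at 6 h, 323, 180.2 and 333 at 12 h, 99.7, 116 and 236 at 24 h, and 86.4, 72.7 and 91.8 at 48 h. Values of NIA1 in SA were 652, 440.3 and 733 at 6 h, 1070.1, 447 and 549.6 at 12 h, 870.3, 701 and 796 at 24 h, and 779, 576 and 799.8 at 48 h. The 3 L-Glu libraries at 6 h spread from 56.5 to 518 around the urea values, and from 12 h on all L-Glu libraries lay below urea. L-Glu differed from urea by -0.96 at 6 h, -1.02 at 12 h, -1.87 at 24 h and -2.51 at 48 h (SE 0.44), called at 24 h (adjusted p = 0.000425) and 48 h (adjusted p = 9.44e-06) and not at 12 h (adjusted p = 0.0546). The 12 h value was called in 7 processing alternatives, with values from -1.01 to -1.47. The 6 h value was -1.63 without replicate 3 of L-Glu (adjusted p = 0.0129, called) and -0.04 without replicate 2 (adjusted p = 0.959). SA was not called against urea at any time, with differences of 0.58 at 6 h, 0.23 at 12 h, 0.62 at 24 h and 0.57 at 48 h and adjusted p from 0.308 to 0.724. All SA libraries lay above urea at 6, 24 and 48 h, and with only the groups compared in the fit these differences were called (adjusted p of 0.00832, 0.00082 and 0.0171). L-Glu was below SA by -1.54 at 6 h, -1.25 at 12 h, -2.48 at 24 h and -3.08 at 48 h, of which the 6 h call was lost without L-Glu replicate 2 (-0.63) and the 12 h call without L-Glu replicate 2 (-0.96) or SA replicate 1 (-0.88).

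The difference between L-Glu and urea was tested for change from 6 to 48 h. It fell for 3 of the 9 genes, where 16.4% of all genes rose and 19.1% fell. With every library at the same total it fell for 7 of the 9 genes, where 36.7% of all genes fell, and 20.9% of the genes called were then higher, against 46.1% as deposited. The change in log2 difference was -2.63 ± 0.50 for NRT2.5 (adjusted p = 7.58e-05), -1.85 ± 0.45 for NIA2 (adjusted p = 0.00142) and -1.55 ± 0.62 for NIA1 (adjusted p = 0.0490). Urea itself rose over the same times for NRT2.5, as given above, and for NIA2 the urea change of 0.83 ± 0.32 was not called (adjusted p = 0.0759). The NIA1 call was lost without any 1 of 11 libraries of this comparison, with values from -0.88 to -1.63, and among the 12 libraries held only without replicate 2 of L-Glu at 6 h. It was also lost with recomputed trimmed-mean scaling (-1.47, adjusted p = 0.0611). With all libraries NRT1.1, NRT1.8 and NIR1 had values of -0.73, -1.88 and -0.67, not called (adjusted p from 0.0531 to 0.0647). Without replicate 2 of L-Glu at 6 h they were called, at -0.93, -2.63 and -0.78. The share of all genes called in that fit is not given here, so these added calls are not read as particular to the set.

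Within urea, 3 of the 9 genes rose from 6 to 48 h, where 7.28% of all genes rose and 8.51% fell. With library totals made equal, 69.5% of the calls were upward at 48 h, against 46.1% as deposited. Beside NRT2.5 these were NRT1.5, by 0.97 ± 0.28 (adjusted p = 0.0169), and NRT1.8, by 1.57 ± 0.55 (adjusted p = 0.0480, overlapping groups). Both calls were lost without urea 6 h replicate 1 (0.88 and 1.03), urea 48 h replicate 1 (0.95 and 1.31) or urea 48 h replicate 2 (0.86 and 1.27). That of NRT1.5 was also lost without urea 6 h replicate 3 (0.91) and that of NRT1.8 without urea 6 h replicate 2 (1.49).

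Against mock at 0 h the reductase genes were lower in urea and L-Glu. The mock values were 3583, 1368 and 1639.7 for NIA1, 6275, 3129 and 3459 for NIA2 and 882, 640.2 and 733 for NIR1. Mock replicate 1 was the highest library of all 39 for NIA1, NIA2 and NIR1. Averaged over the times, urea differed from mock by -2.06 ± 0.35 for NIA1, -1.09 ± 0.25 for NIA2 and -0.98 ± 0.16 for NIR1 (highest adjusted p = 0.00300), and the NIA2 call was lost without mock replicate 1 (-0.78). L-Glu differed by -3.65, -2.51 and -3.05 (highest adjusted p = 1.63e-10). SA differed by -1.56 for NIA1 and -1.42 for NIR1, and its NIA2 value of -0.48 was not called.

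Among the transporters, the mock values of NRT2.5 were 2.28, 6.60 and 3.27, below every treated library. NRT2.5 was higher than mock in all 3 treatments, by 2.96 ± 0.28 in urea, 2.16 ± 0.28 in L-Glu and 5.15 ± 0.28 in SA. NRT1.8, at 22.2, 15.8 and 12.202 in mock, was lower in urea by -2.14 on the log2 scale and higher in L-Glu by 3.98 (highest adjusted p = 0.000854), and its SA call (1.18, adjusted p = 0.0246) was lost without mock replicate 2 (1.16) or 3 (0.98). NRT2.1, at 2.93, 3.50 and 2.19 in mock, was higher in L-Glu by 2.47 and lower in SA by -1.65. NRT1.5, at 666, 459 and 860.0 in mock, was lower in SA by -2.57. NRT1.1, at 1208, 707 and 1072 in mock, was lower in SA by -0.90 and higher in urea by 0.59, and the latter was lost without mock replicate 2 (0.36, adjusted p = 0.241). The L-Glu difference of NRT1.1 from mock, -0.37, was not called. It was called after quantile normalization (-0.84), at the same total (-0.81), with array quality weights (-0.35) and with the replicate block.

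Against mock, urea had 2 of the 9 genes higher and 4 lower, where 7.79% of all genes were higher and 6.14% lower. L-Glu had 3 higher and 3 lower, with 28.8% and 28.8% of all genes, and SA had 2 higher and 5 lower, with 24.4% and 25.9% of all genes. Each of these comparisons rests on the same 3 mock libraries, and they are not independent of one another. At the same total 68.9% of the genes called in urea and 27.3% of those called in L-Glu were higher than mock, against 55.9% and 50.0% as deposited, and 39.3% in L-Glu after quantile normalization.

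Other genes of nitrate transport were read from a list of 14 measured transporters and channels. Averaged over the times, 5 were higher in L-Glu than in urea and 8 lower, where 33.0% of all genes were higher and 36.4% lower, with a median log2 difference of -0.43, beside -0.05 over all genes. NAXT1 (AT3G45650), which exports nitrate from root cells, differed by 2.47 ± 0.12, with 1.48 at 6 h, 2.80 at 12 h, 2.92 at 24 h and 2.66 at 48 h. SLAH3 (AT5G24030), an anion channel that passes nitrate, differed by 2.02 ± 0.20 on average and by 3.49 at 12 h and 0.33 at 48 h, the latter not called. SLAH2 (AT4G27970), a nitrate channel, differed by 1.698 ± 0.19, with -0.42 at 6 h, 2.55 at 12 h, 2.48 at 24 h and 2.18 at 48 h, the first of these not called. NRT1.11 (AT1G52190), which moves nitrate into the phloem, differed by -2.35 ± 0.21 in L-Glu on average and in SA by -2.61 at 6 h, -2.69 at 12 h, -3.02 at 24 h and -3.93 at 48 h (highest adjusted p = 6.97e-06). At 6 h its mean value was 86.9 in L-Glu and 70.3 in urea. At 12, 24 and 48 h it was 18.8, 8.95 and 2.82 in L-Glu and 75.1, 91.3 and 69.4 in urea. All these averaged differences were called, the highest adjusted p being 1.56e-09.

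In SA 2 of the 14 were higher than urea and 8 lower at 6 h, 2 and 9 at 12 h, 1 and 6 at 24 h, and 1 and 7 at 48 h. Of all genes, 13.5% to 15.6% were lower and 13.5% to 16.2% higher in these comparisons. The median difference was -0.65, -0.91, -0.60 and -1.09 at these times, where the median of all genes was between -0.02 and 0.01. NRT2.4 (AT5G60770), another high-affinity carrier, was singled out after its values were seen. It was listed at 0 in all 3 SA libraries at 48 h and was at most 0.583 in the other SA libraries, against 3.03, 3.11 and 8.996 at 6 h, 8.82, 10.4 and 15.9 at 12 h, 6.80, 7.88 and 18.9 at 24 h, and 22.8, 6.09 and 11.3 at 48 h in urea. NRT2.1 and NRT2.4 were thus both near 0 in SA, where NRT2.5 was high. In L-Glu NRT2.4 was lower than urea over the averaged times, by -2.05 ± 0.26 (adjusted p = 2.07e-08), where NRT2.1 was higher.

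Of 26 measured regulators of the nitrate response, 10 were higher in L-Glu and 7 lower over the averaged times, with a median of 0.07. Of all genes, 33.0% were higher and 36.4% lower. The calcium-dependent kinase genes CPK10 (AT1G18890) and CPK32 (AT3G57530), whose products phosphorylate the nitrate regulator NLP7, differed by 2.19 ± 0.081 and 2.91 ± 0.16. CPK30 (AT1G74740), the third kinase of this group and named here after its values were seen, was not called (0.13 ± 0.10, adjusted p = 0.240). CBL1 (AT4G17615), a calcium sensor that activates the kinase acting on NRT1.1, differed by 3.62 ± 0.13, with values of 1432, 1298 and 1353 in L-Glu at 24 h and 56.8, 32.0 and 62.5 in urea. That kinase, CIPK23 (AT1G30270), also named after its values were seen, differed by -0.34 ± 0.06 on the log2 scale (adjusted p = 7.19e-06). TCP20 (AT3G27010), a transcription factor that binds nitrate-responsive promoters, differed by 2.23 ± 0.17. NLP7 (AT4G24020) itself differed by 0.11 at 6 h, -0.01 at 12 h, -0.95 at 24 h and -0.76 at 48 h on the log2 scale, called at 24 and 48 h and not at 6 or 12 h, and NLP2 (AT4G35270), of the same family, averaged -0.79 ± 0.10. In SA 5 of the 26 were higher and 5 lower at 6 h, where 15.9% and 13.5% of all genes were, then 4 and 1 at 12 h (16.2% and 15.6% of all genes), 4 and 4 at 24 h (15.1% and 15.5%), and 2 and 4 at 48 h (13.5% and 14.9%).

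Nitrate reductase carries a molybdenum cofactor, and nitrite reductase is fed by ferredoxin and plastid sugar oxidation. Of 11 measured genes for these functions, 3 were higher in L-Glu and 5 lower over the averaged times, with a median of -0.17, where 33.0% of all genes were higher and 36.4% lower. The higher ones were the cofactor genes CNX5 (0.69 ± 0.075), CNX2 (0.78 ± 0.10) and CNX1 (0.51 ± 0.072). Of the other cofactor genes measured, both named after their values were seen, CNX7 was lower (-0.40 ± 0.14, adjusted p = 0.0139) and CNX3 was not called (-0.22 ± 0.13). The ferredoxin gene FD3 (-0.46 ± 0.10) and the plastid glucose-6-phosphate dehydrogenase gene G6PD2 (-0.31 ± 0.062) were lower. In SA 5, 5, 3 and 3 of the 11 were higher than urea and 0, 1, 3 and 3 lower at 6, 12, 24 and 48 h, where 13.5% to 16.2% of all genes were higher and 13.5% to 15.6% lower. CNX3 and CNX7 were called at none of these times. CNX1, CNX2 and CNX5 were called higher at every time, by 0.95 at 6 h, 1.07 at 12 h, 1.22 at 24 h and 1.01 at 48 h for CNX1, 1.42 at 6 h, 1.298 at 12 h, 1.17 at 24 h and 0.74 at 48 h for CNX2 and 1.01 at 6 h, 1.18 at 12 h, 1.07 at 24 h and 0.66 at 48 h for CNX5.

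**Figure D4:**
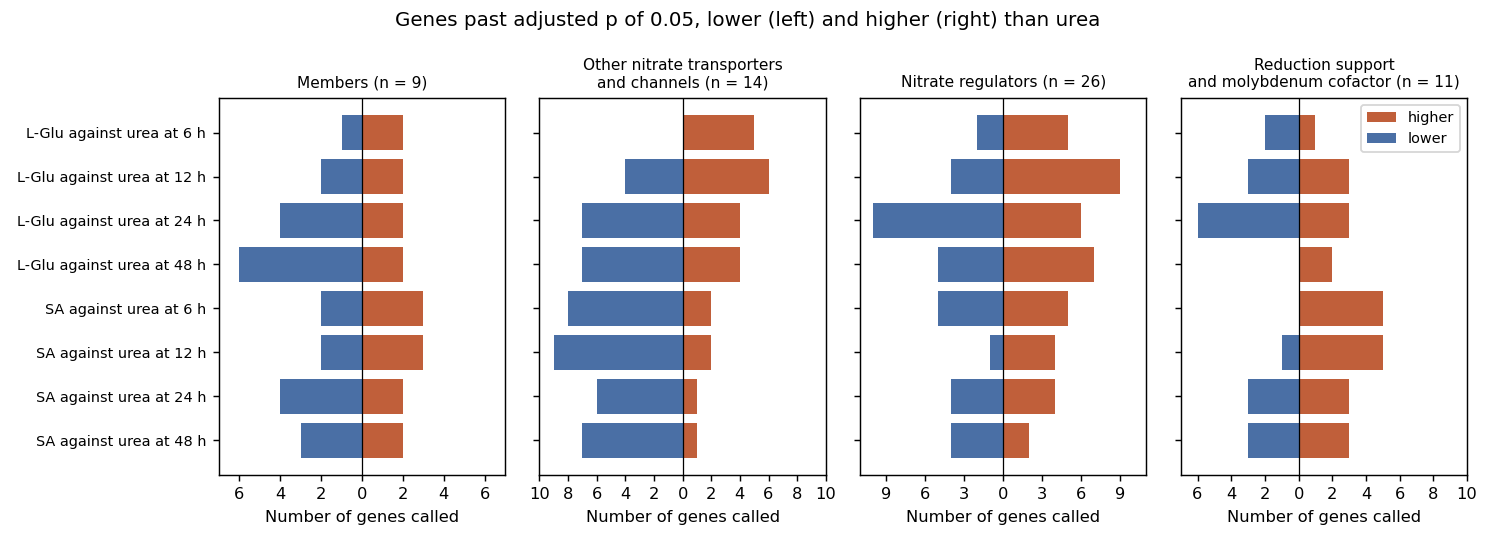
Number of genes called higher (right, orange) and lower (left, blue) than urea in L-Glu and SA at each time, for the 9 genes and for the 3 lists of 14, 26 and 11 genes. The other transporters had 8, 9, 6 and 7 genes lower in SA and 0, 4, 7 and 7 lower in L-Glu at 6, 12, 24 and 48 h, with 5, 6, 4 and 4 higher in L-Glu. Of all genes, 13.5%, 15.6%, 15.5% and 14.9% were lower in SA at these times. In L-Glu 3.15%, 21.9%, 31.3% and 27.6% of all genes were lower and 8.36%, 25.8%, 29.3% and 25.2% higher.

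Across the 13 group means of log2(value + 1), NIA1 and NIA2 had a Pearson correlation of 0.92, NIA1 and NIR1 of 0.87, and NIA2 and NIR1 of 0.85. NRT1.8 and NIR1 had -0.71 and NRT2.1 and NRT1.8 had 0.69. All 13 points come from one table and most from the same 3 treatments at different times, and the values are a description. The genes outside the set with the closest pattern were SWEET13 (0.967) and CLV1 (0.966) for NRT1.1, AT4G29700 (0.941) and ZIP3 (0.941) for NRT1.5, AT3G57020 (0.963) and AT1G72760 (0.957) for NRT1.8, and AUF2 (0.969) and KLCR2 (0.959) for NRT2.1. For NRT2.5 they were AT3G27110 (0.958) and DEAR2 (0.938), for NIA1 AT3G12150 (0.936) and IDD2 (0.926), for NIA2 GT-1 (0.942) and AT5G22920 (0.941), for NIR1 cICDH (0.961) and TTN1 (0.949), and for NRT2.6 AT2G05280 (0.807) and HMT3 (0.790).

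Several of these transporters are known from roots, and values of root and green shoot marker genes differed between the treatments. Such values cannot tell a changed share of a tissue from changed expression of the markers themselves. The summed value of 10 root markers was 5887 to 6391 in mock, 2887 to 5053 in the urea libraries, 782 to 2324 in SA, 3845 to 5240 in L-Glu at 6 and 12 h, 5249 to 9412 at 24 h and 17230.5 to 21423 at 48 h. Marker sums here are as deposited and were not brought to the same library total. Over all genes, the libraries at 24 h total 5278622 to 5886170 in L-Glu and 2571045 to 2688591 in urea. In SA 4, 4, 6 and 7 of the 10 were lower than urea at 6, 12, 24 and 48 h, where 13.5% to 15.6% of all genes were lower, and PHO1 was higher at 48 h. The median log2 difference of the 10 from urea in SA was -0.85, -1.07, -1.42 and -1.94 at these times. PYK10 made up most of the sum in most libraries. Without it the other 9 markers summed to 651 to 798 in mock, 572 to 773 in urea and 477 to 727 in SA. These sums overlapped in SA and urea. In L-Glu the sums were 585 to 925 up to 24 h and 962 to 1159 at 48 h. The root hair gene EXPA7 was listed at 0 in 6 SA libraries, the root hair gene COBL9 in 2 and the root stem cell gene PLT1 in 1, and no other root marker was listed at 0 in any library. In 16 libraries no gene at all was listed at 0, among them every L-Glu library at 12 and 24 h. Counts of 0 therefore do not compare treatments. In L-Glu 0 of the 10 were called in limma at 6 or 12 h, with an unadjusted p below 0.05 for 0 and 1 of them, at 24 h 2 were higher and 2 lower (median log2 difference -0.39), and at 48 h 4 were higher and 1 lower (median -0.13), with the root beta-glucosidase gene PYK10, by 2.88 ± 0.24, at a mean of 18216 in this group. Of all genes, 29.3% were higher and 31.3% lower at 24 h, and 25.2% and 27.6% at 48 h. The part of root markers in the results of the transporters was not tested.

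The summed value of 8 green shoot markers of photosynthesis was 55809 to 128435 in urea and 60459.5 to 110033 in SA. In L-Glu it was 86396 to 104597 at 6 h, 57156 to 60809.8 at 12 h, 4511 to 9322 at 24 h and 1502 to 1953 at 48 h. None was listed at 0 in any library. In L-Glu 1 of the 8 was lower than urea at 6 h, 7 at 12 h and all 8 at 24 and 48 h, where 3.15%, 21.9%, 31.3% and 27.6% of all genes were lower. The part of the green markers in the reductase results was not tested.

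**Figure D5:**
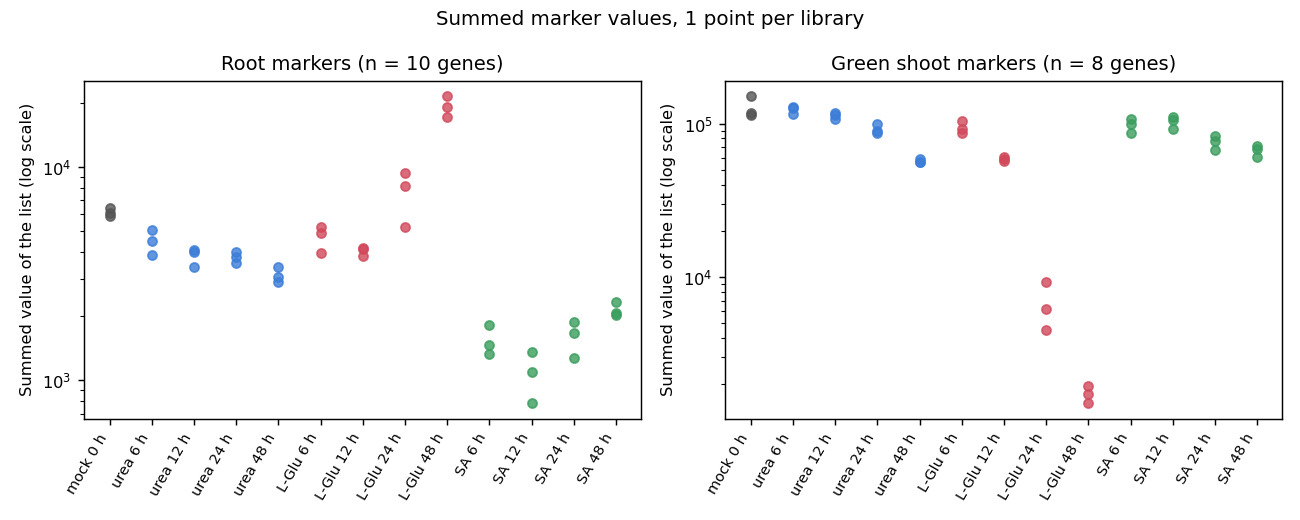
Summed normalized value (log scale) of 10 root markers (left) and 8 green shoot markers (right), 1 point per library in the 13 groups. Root markers lie lowest in SA and highest in L-Glu at 48 h, a sum that is mostly PYK10, and green markers lie lowest in L-Glu at 24 and 48 h.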

How the data were processed

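RNA from 39 libraries of Col-0 seedlings was measured by sequencing, and groups and replicate numbers were read from the sample titles. The authors deposited one table of normalized signal values per gene and library, which are not whole numbers. The build TAIR10 and, without settings, edgeR 3.22.3, HTSeq 0.6.0 and TopHat2 2.1.0 stand in the submitters' processing notes, and how the authors scaled the values is not stated there. Whole reads could not be recovered, so depth is unknown, no count test or counting interval was computed, and 0 is reported only as listed. In 16 libraries no gene was listed at 0. Whether counting used strand is likewise not stated, and reads of antisense or overlapping genes may be mixed.

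Values were taken as log2(value + 1), which understates differences of low genes. A gene was kept if 3 or more libraries held 1 or more, which was true of all 20001. The 13 group means were fitted together over the 39 libraries in limma 3.58.1 (R 4.3.3), with a mean-variance trend and 26 residual degrees of freedom. Moderated tests were two-sided, and p-values were adjusted by Benjamini-Hochberg across all genes within each of the 18 comparisons. Each gene had one spread over all groups.

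The 10 genes, the lists and the markers were chosen with earlier results of these data known. The 9 genes with values are reported whether called or not, and of each list up to 5 genes with the lowest adjusted p in L-Glu against urea averaged over the times, plus NLP7 and, after their values were seen, NRT2.4, CPK30, CIPK23, CNX3 and CNX7. List genes whose symbol and identifier disagreed in the reference table were left out (NRT1.3, NRT1.4, NRT3.2, HHO1, HHO2, HHO3, NRG2 and CNX6), and NRT1.6, NRT2.3 and ANR1 were not analysed here. The 2 genes most like each gene were those with the highest correlation of 13 group means. Promoter windows, motif matches and coding identity were computed with Biopython 1.88 from RefSeq TAIR10.1, used for names and sequence only; 19887 identifiers matched it. Alternatives were pseudocounts of 0.25 and 4, no filter or one at 5, recomputed trimmed-mean scaling (each library against the geometric mean over libraries, with the outer 30% of the log ratios and the outer 5% of the levels left out at each end), quantile normalization, every library at the same total, only the groups compared in the fit, array quality weights, the replicate number as a block, and leaving out each replicate number or each library.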

Additional observations from a re-analysis of the deposited data

Results flagged for a closer look

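For 3 genes the difference between L-Glu and urea was not the same at 48 h as at 6 h, by the test of that change in the limma fit. The change was -2.63 for NRT2.5 on the log2 scale, where the difference was -0.02 at 6 h and -2.64 at 48 h. For NIA2 it was -1.85, where the difference was -0.65 at 6 h and -2.50 at 48 h. For NIA1 it was -1.55, where the difference was -0.96 at 6 h and -2.51 at 48 h, with an adjusted p of 0.0490 close to the threshold.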

How the results depend on the processing

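Of 162 differences of the 9 genes over the 18 comparisons, 105 were called; 82 of these were called in the same direction under every alternative and 23 lost the call in at least 1. Of the 57 not called, 26 were called in at least 1. Of the 9 genes, 7 were called in L-Glu against urea at 12 h after quantile normalization, against 4. Among all genes 11165 were then called, against 9540. In the test of how that difference moved between 6 and 48 h, 3 of the 9 genes were called. This number was 6 under quantile normalization, 7 with library totals made equal, 6 with array quality weights and 5 with the replicate block. Over all genes that test called 7341 under quantile normalization and 9275 with library totals made equal, against 7101. Counts over all genes with the weights or the block are not given here. The cause of these shifts was not tested. Calls lost under a processing setting, beside those given with their genes, included NRT1.8 in L-Glu against SA at 6 h (1.42) and in SA against mock (1.21) with a pseudocount of 0.25, and NRT2.1 in SA against urea at 24 h (-0.62) and NRT1.8 within urea (0.89) with one of 4. Quantile normalization and equal library totals ended those of NIA2 in SA against urea at 12 h (0.72 and 0.76) and NRT1.5 in L-Glu against SA at 48 h (0.56 and 0.44), and array quality weights that of NRT1.5 in L-Glu against urea at 48 h (-0.73). With only the groups compared in the fit, the L-Glu against SA calls of NIA1 and NRT1.8 at 6 h were lost (adjusted p of 0.103 and 0.0694). Without replicate number 1 the urea against mock call of NRT1.8 was lost (-1.84, adjusted p = 0.0591). A sign turned with a call for NIA2 in L-Glu against urea at 12 h (-0.79 after quantile normalization) and for NRT1.5 at 24 h (-1.07 with library totals made equal and -0.87 under quantile normalization), and 19 other differences turned sign without being called on either side.

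Leaving out one replicate number or one library gave 3 to 5 genes called in SA against urea at 48 h, 3 to 6 in urea against mock, 1 to 3 in urea at 48 against 6 h, and 2 to 6 in the change from 6 to 48 h. Fewer libraries enter these fits, and their counts over all genes are not given here. Where a group kept 2 libraries its spread was pooled with that of the others.

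Replicate numbers were not used as pairs in the main fit. Deviations of same-numbered libraries correlated between -0.07 and 0.14 in 36 pairs, 5 of them over 0.1. In 0 of 12 comparisons were all pairs over 0.1. The block was therefore an alternative only. Among other shifts, it added calls of NRT1.1 and NIR1 in the change from 6 to 48 h (adjusted p of 0.00463 and 0.0269). It ended those of NRT1.8 in L-Glu against SA at 6 h and within urea (0.0504 and 0.0503). Whether same-numbered libraries belong together was not tested. Depth is unknown, so how far low values such as those of NRT2.1 and NRT2.6 could be resolved cannot be stated.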
